A study of Mus musculus with 18 samples.

Results

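The response of the Cip2a-/- mouse mammary gland to the carcinogen DMBA was measured 2 weeks after the last dose, as the difference between 3 treated and 3 untreated glands over all genes that passed a low-count filter. The filter kept 15482 of the 23337 genes in the table, and 6 of the study's 18 libraries enter the comparison. All mice were of the mixed strain C57BL/6Jx129, and both groups lacked Cip2a, so the comparison shows what DMBA-treated glands differed in on the deleted background. Treated mice, 12 to 14 weeks old at the first dose, received 1 mg of DMBA in oil by gavage once a week, 6 doses in all. Untreated mice received nothing that the labels state, so DMBA, the oil and the gavage cannot be told apart, and age at collection is not stated in the labels. The study has the same groups in wild type (WT) mice and 1 further condition, the endpoint, for which glands free of tumour were collected once a DMBA-induced tumour elsewhere ended a mouse's follow-up. Polyadenylated RNA came from whole glands without lymph nodes, and in such bulk tissue fewer cells of a type and less RNA per cell cannot be told apart.

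DMBA (7,12-dimethylbenz[a]anthracene) is a polycyclic hydrocarbon that enzymes induced by the aryl hydrocarbon receptor turn into metabolites that bind DNA. DNA damage stabilises the transcription factor p53, which induces genes for cell cycle arrest, apoptosis, DNA repair and metabolism, and also Mdm2, which marks p53 for degradation. The protein made by Cip2a inhibits the phosphatase PP2A and also acts in mitosis at broken chromosomes.

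Cip2a, listed under its older symbol C330027C09Rik (chromosome 16, 48994157 to 49019716, GRCm38), had 1, 1 and 0 reads in the untreated and 0 reads in each of the 2-week Cip2a-/- libraries. The 6 WT libraries of the same 2 conditions had 15 to 71 reads. Total counts of the 6 Cip2a-/- libraries ranged from 16121743 to 22588031. Adipocyte markers were abundant in all 6, with summed levels of 31770 to 46950 CPM (reads scaled by library size to a common depth), and pan-epithelial markers summed to 825 to 1860 CPM. Lymphocyte markers remained although lymph nodes were excluded: the B cell list summed to 460, 80.0 and 1192 CPM in untreated libraries 1 to 3 and to 71.4, 426 and 132 CPM at 2 weeks. The 2-week library 1 stood apart on the first principal component (-110.8, against -31.4 to 45.8 in the other 5). Skeletal muscle markers summed to 97390 CPM there, against 277 and 125 CPM in 2-week libraries 2 and 3 and 21310, 95.2 and 9484 CPM in the untreated libraries. Values without this library are given for some results, among them the p53 targets together, Cdkn1a and Eda2r. They are not given for every gene that was highest in it.

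At 2 weeks after DMBA, Gdf15 and Ephx1 rose in Cip2a-/- glands, and no gene fell at the same threshold. Gdf15 encodes a secreted stress cytokine and Ephx1 the microsomal epoxide hydrolase, an enzyme of polycyclic hydrocarbon metabolism, and both are known p53 targets. These 2 genes are 0.0129% of the 15482 tested (edgeR quasi-likelihood test, Benjamini-Hochberg adjusted p under 0.05). At an unadjusted p under 0.05, 320 genes were higher (2.07% of those tested) and 382 lower (2.47%), 702 in all, where chance gives 774. DESeq2, an alternative test, called 30 genes higher, Gdf15 and Ephx1 among them, and 6 lower. In 1073 genes (6.93%) all 3 treated libraries lay above all 3 untreated ones, and in 849 genes (5.48%) below.

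Gdf15 (chromosome 8, 70629393 to 70632470) was at 0.179, 0.330 and 0.869 CPM in untreated libraries 1 to 3 and at 25.4, 20.1 and 13.5 CPM in 2-week libraries 1 to 3. It went from close to the detection limit to a clear signal in every treated gland, with no overlap. The log2 fold change was 5.40 ± 0.76 (SE, n = 3 against 3), a 42.3-fold increase, with an adjusted p of 0.0369 (edgeR). Ephx1 (chromosome 1, 180989556 to 181017569) was at 101, 97.8 and 111 CPM in the untreated and at 344, 407 and 295 CPM in the 2-week libraries. This abundant transcript varied little within a group, and its log2 fold change was 1.76 ± 0.24 (3.38-fold, adjusted p = 0.0369, edgeR). In the endpoint libraries, which share in the estimate of the spread, Gdf15 was at 0.652, 0.591 and 0.996 CPM and Ephx1 at 163, 174 and 169 CPM. Both calls were lost when any 1 of the 6 libraries was left out: the adjusted p of Gdf15 was then 0.0652 to 0.371 and that of Ephx1 0.0652 to 0.357, with log2 fold changes of 5.03 to 6.23 and 1.63 to 1.86. They were also lost when only the 6 libraries were fitted (adjusted p = 0.410 for both, edgeR) and without the 6 endpoint libraries (0.197 for Gdf15 and 0.201 for Ephx1).

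**Figure D1:**
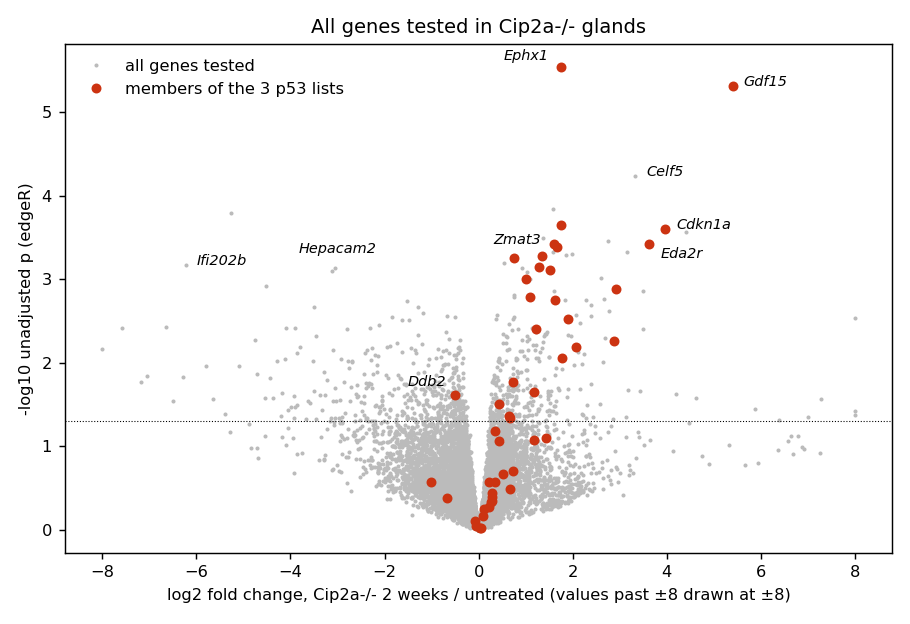
Log2 fold change (x axis) and -log10 of the unadjusted edgeR p (y axis) of the 15482 genes tested, grey, with the 48 members of the p53 lists in red. The dotted line marks the unadjusted threshold. Ephx1 and Gdf15 lie highest, and most red points lie to the right of 0.

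Many p53 targets had higher values 2 weeks after DMBA. With 48 p53 targets in 3 lists (arrest and feedback, apoptosis and stress effectors, metabolic and other targets, 16 genes each), all of which passed the filter, 43 had positive fold changes and 25 were higher at an unadjusted p under 0.05 (52.1%, against 2.07% of all genes). In 27 of them (56.2%, against 6.93% of all genes) the treated libraries lay wholly above the untreated ones, and in 0 below. The median log2 fold change of the 48 was 0.73, against 0.00 over all genes tested. The lists were chosen with earlier results of these data known, so these shares describe the lists and are no independent test. Gdf15 and Ephx1 were the only members that passed the adjusted threshold in edgeR. Without 2-week library 1, the one rich in muscle markers, 39 of the 48 stayed positive, 22 were higher at an unadjusted p under 0.05 (2.07% of all genes in that fit), and the median was 0.58.

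Among the 16 genes of arrest and feedback, 14 had positive fold changes, 9 were higher at an unadjusted p under 0.05, and the median log2 fold change was 1.24. Cdkn1a, the cyclin-dependent kinase inhibitor p21 (chromosome 17, 29090979 to 29100722), was at 29.4, 43.8 and 65.2 CPM untreated and at 1081, 655 and 432 CPM at 2 weeks. The lowest treated gland was above the highest untreated one by a wide margin, but the treated glands themselves differed. The log2 fold change of 3.97 ± 0.82 had an adjusted p of 0.449 (edgeR), and it was 3.58 without 2-week library 1. Zmat3, an RNA-binding p53 effector, was at 25.2, 25.5 and 27.0 CPM untreated and at 111, 74.6 and 51.9 CPM at 2 weeks (1.61 ± 0.35). Here the untreated glands were nearly identical and the spread lay in the treated ones.

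The feedback genes Mdm2 and Ccng1 and the arrest genes Trp53inp1, Gtse1 and Rprm also had all treated libraries above the untreated ones. They were named after their values were seen. In Gtse1 the untreated glands spread too, at 2.39, 5.94 and 12.5 CPM. Mdm2, the ubiquitin ligase of p53, was at 46.9, 43.4 and 53.05 CPM untreated and at 169, 108 and 74.0 CPM at 2 weeks (log2 fold change 1.29 ± 0.30). Ccng1, cyclin G1, was at 194, 95.1 and 130 CPM untreated and at 1143, 400 and 221 CPM at 2 weeks (2.07 ± 0.65). In these 2 genes, as in Cdkn1a and Zmat3, 2-week library 1 was the highest and library 3 the lowest of the treated glands. Trp53inp1 had a log2 fold change of 1.89 ± 0.53, Gtse1 of 1.77 ± 0.58 and Rprm, at 2.95 CPM or less in each of the 6 libraries, of 2.91 ± 0.73. Sesn2, a sestrin that restrains mTORC1, was at 30.4, 36.8 and 33.3 CPM untreated and at 68.4, 91.9 and 67.9 CPM at 2 weeks (1.18 ± 0.46). Sesn1, Plk3, Ppm1d, Sfn and Cdkn2a overlapped between the groups.

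Among the 16 effectors of apoptosis and stress, 14 had positive fold changes, 10 were higher at an unadjusted p under 0.05, and the median was 0.65. Eda2r, a p53-induced receptor of the TNF receptor family (chromosome X, 97333837 to 97377234), was at 3.17, 1.43 and 3.24 CPM untreated and at 67.9, 18.6 and 10.9 CPM at 2 weeks. Its log2 fold change was 3.63 ± 0.79, and 2.51 without 2-week library 1. Bax, the pro-apoptotic pore former, was at 28.3, 37.7 and 50.04 CPM untreated and at 107, 107 and 81.8 CPM at 2 weeks (1.35 ± 0.30). Bbc3 (Puma, a BH3-only activator of apoptosis) was at 12.5, 19.6 and 19.3 CPM untreated and at 41.6, 37.3 and 31.2 CPM at 2 weeks (1.10 ± 0.28). In Bax and Bbc3 the 3 treated glands were closer to each other than in Eda2r. Aen, a p53-induced nuclease, had 1.62 ± 0.42, Tnfrsf10b, a death receptor, 1.01 ± 0.24, Ei24, a p53-induced gene of the endoplasmic reticulum, 0.74 ± 0.17, and Fas 0.44 ± 0.18, all without overlap. Bax, Bbc3, Aen, Tnfrsf10b, Ei24 and Fas were named after their values were seen. Perp and Bcl2l11 overlapped, as did Pmaip1 (Noxa), at 1.91, 1.82 and 9.67 CPM untreated and 3.29, 2.20 and 1.21 CPM at 2 weeks.

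Among the 16 metabolic and other targets, 15 had positive fold changes, 6 were higher and 1 lower at an unadjusted p under 0.05, and the median was 0.54 (0.29 without 2-week library 1). Dcxr, a carbonyl reductase, was at 26.7, 30.5 and 37.1 CPM untreated and at 115, 123 and 80.1 CPM at 2 weeks (1.75 ± 0.36). Slc19a2, a thiamine transporter, was at 7.41, 7.76 and 6.95 CPM untreated and at 32.7, 24.1 and 13.8 CPM at 2 weeks (1.67 ± 0.37). Neither gene overlapped between the groups. A pair of genes that deal with damaged DNA, named after their values were seen, also had higher values: Mgmt, which removes alkyl groups from guanine, was at 12.5, 12.7 and 11.5 CPM untreated and at 39.5, 38.4 and 27.8 CPM at 2 weeks (1.53 ± 0.36). Polk, the polymerase that copies past bulky hydrocarbon adducts, was at 12.1, 10.5 and 12.2 CPM untreated and at 43.2, 21.8 and 16.1 CPM at 2 weeks (1.22 ± 0.36). The member that was lower was Ddb2, which recognises damage for nucleotide excision repair, at 27.5, 25.4 and 33.4 CPM untreated and 16.8, 26.0 and 18 CPM at 2 weeks (-0.50 ± 0.20). Its groups overlapped through 2-week library 2.

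**Figure D2:**
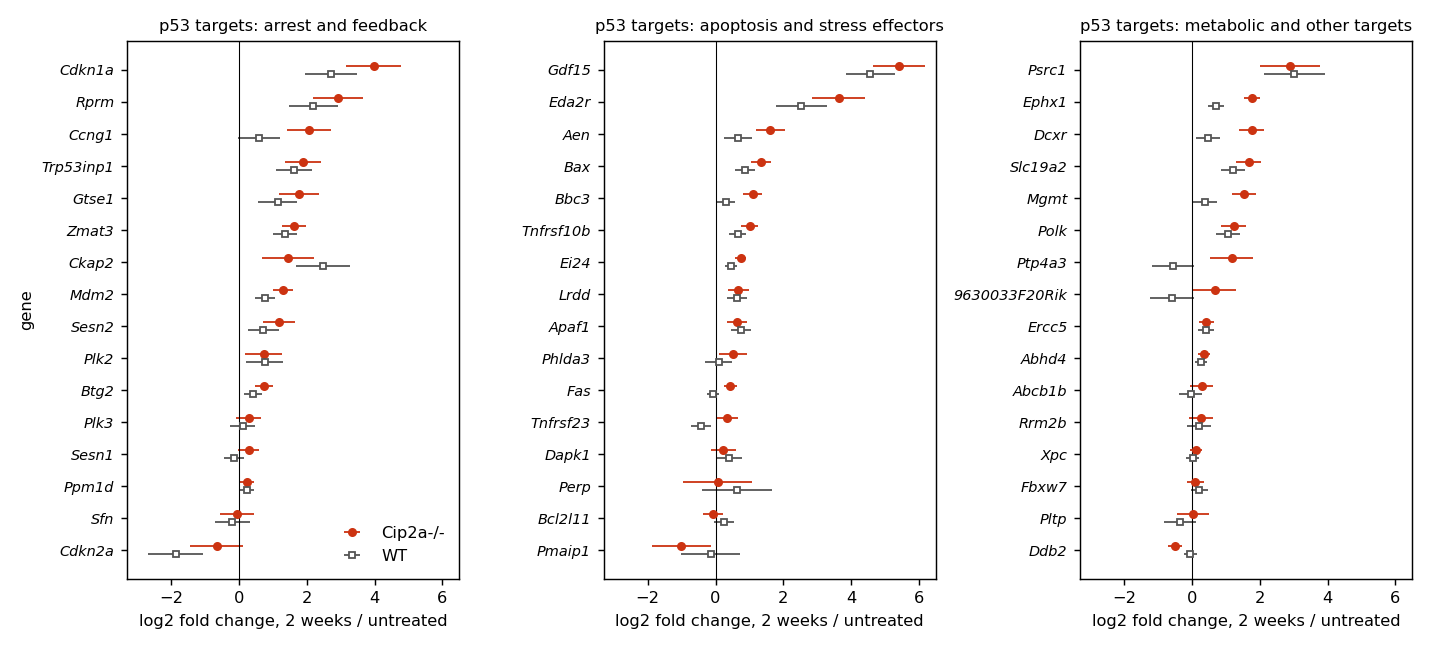
Log2 fold change 2 weeks after DMBA against untreated (x axis) of the 48 p53 targets, 1 panel per list, in Cip2a-/- (red circles) and WT glands (open squares). Bars are SE, n = 3 against 3. Gdf15 at 5.40, Cdkn1a at 3.97 and Eda2r at 3.63 had the 3 highest Cip2a-/- values.

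The p53 targets gave reason to look at the sequence around their start sites, taken from the RefSeq promoter table (GRCm38.p6), whose windows reach a short way past the start. A p53 half-site, the 10-base core that p53 binds as pairs, was searched on both strands and occurs in 8.36% of all 32851 promoters of the table and in 7.07% of the promoters of tested genes. It was present in 14 of the 54 promoters of p53-list genes, which belong to 13 of 39 genes and in some of which it lies after the start. Of the 16 promoters of the 12 named higher genes, 3 held it (Cdkn1a, Celf5 and Exoc4), and of the 11 promoters of the 12 named lower genes, 1 did (Rgl3). Cdkn1a alone of these held a match to a full site, searched as a pair of half-sites with a short spacer and found in 0.0731% of all promoters. Its upstream bases are shown with that match in capitals, beside those of Ephx1, which hold no half-site. The bases right after the Cdkn1a match, tgacatgttc, miss the half-site consensus only at their first base and stay in lower case. The capitals thus need not mark the pair that p53 binds. Gdf15 held none in this window either.
Cdkn1a, chr17:29090729-29090978, plus strand: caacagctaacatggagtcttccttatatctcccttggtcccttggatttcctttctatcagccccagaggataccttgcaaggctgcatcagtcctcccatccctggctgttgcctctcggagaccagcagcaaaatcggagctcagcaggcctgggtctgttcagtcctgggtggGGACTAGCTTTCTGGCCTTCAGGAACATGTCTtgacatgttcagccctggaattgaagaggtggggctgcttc
Ephx1, chr1:181017570-181017819, minus strand: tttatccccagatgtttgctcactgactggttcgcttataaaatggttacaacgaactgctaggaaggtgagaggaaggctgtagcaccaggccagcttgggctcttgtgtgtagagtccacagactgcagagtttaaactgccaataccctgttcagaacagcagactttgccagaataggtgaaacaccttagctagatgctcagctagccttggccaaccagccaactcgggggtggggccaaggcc
For other genes with higher values, the half-site is shown in capitals with the bases around it.
Mdm2, chr10:117710915-117710964, minus strand: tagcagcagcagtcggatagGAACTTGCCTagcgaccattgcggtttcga
Ccng1, chr11:40755442-40755491, minus strand: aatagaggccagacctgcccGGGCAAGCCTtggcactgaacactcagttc
Bax, chr7:45467070-45467119, minus strand: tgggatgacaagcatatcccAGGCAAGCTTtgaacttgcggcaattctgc
Ei24, chr9:36797335-36797364, minus strand: ccagctgccccgtgcggcccGGGCATGCCC
Celf5, chr10:81482852-81482901, minus strand: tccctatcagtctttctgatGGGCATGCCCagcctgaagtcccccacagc
Exoc4, chr6:33248905-33248954, plus strand: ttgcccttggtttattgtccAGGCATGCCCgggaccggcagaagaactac
The site began 73 bases before the start of the promoter shown in Cdkn1a, 186 in Mdm2 and 185 in Ccng1. The distance was 201 in Bax, 10 in Ei24, 182 in Celf5 and 203 in Exoc4. Another Cdkn1a promoter, chr17:29093519-29093818, held no half-site. The core of the aryl hydrocarbon receptor element, GCGTG, was in 32.4% of all promoters, in 47.3% of the promoters of tested genes and in 7 of the 16 promoters of the named higher genes. The core of the antioxidant element, TGACNNNGC, was in 12.4%, in 14.2% and in 2 of the 16. A match of letters describes the window and is no measure of binding.

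Of the 12 named higher genes, chosen by the lowest p among genes without overlap between the groups, 7 are p53-list members (Gdf15, Ephx1, Dcxr, Cdkn1a, Zmat3, Slc19a2 and Eda2r). The other 5 were outside those lists, whose members were chosen with earlier results of these data known. Being outside them does not show that a gene is no p53 target. Celf5, an RNA-binding protein best known from neurons, was at 1.08, 0.935 and 1.85 CPM untreated and at 20.8, 10.5 and 7.89 CPM at 2 weeks. Its log2 fold change was 3.33 ± 0.59, and it ranked next after the called genes (adjusted p = 0.297, edgeR). Exoc4, a subunit of the exocyst that tethers secretory vesicles, was at 40.3, 33.4 and 33.6 CPM untreated and at 167, 91.8 and 63.2 CPM at 2 weeks (1.58 ± 0.35). In both, 2-week library 1 was the highest. Zfp365, a gene linked to genome stability, was at 0.897, 2.70 and 1.80 CPM untreated and at 26.0, 14.1 and 7.98 CPM at 2 weeks (3.15 ± 0.70). Scn3b, a sodium channel subunit, was at 1.97, 1.32 and 1.62 CPM untreated and at 9.53, 5.29 and 2.97 CPM at 2 weeks (1.85 ± 0.42). Pqlc3, a transmembrane protein, was at 22.5, 21.5 and 33.8 CPM untreated and at 68.0, 76.3 and 56.0 CPM at 2 weeks (1.36 ± 0.29). None of these 5 passed the adjusted threshold in edgeR, and DESeq2 called all 5.

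**Figure D3:**
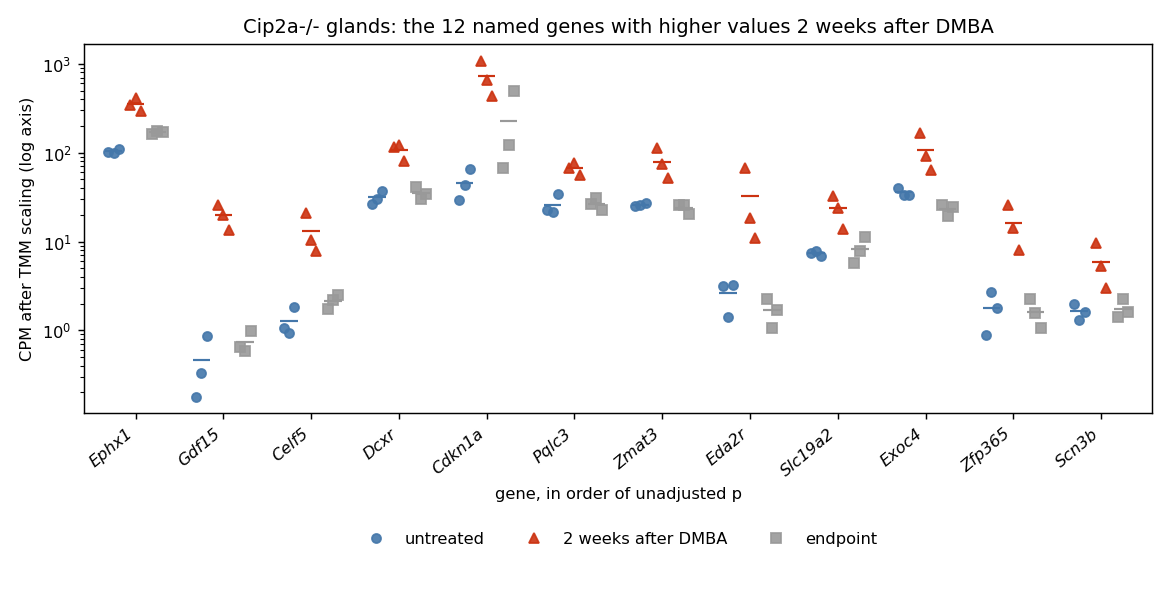
CPM after scaling (log axis) of the 12 genes with the lowest p among those higher at 2 weeks without overlap, in the Cip2a-/- untreated, 2-week and endpoint libraries. Points are libraries 1 to 3 from left to right within a group and lines are means. The separation of treated from untreated libraries was a condition for choosing them. Library 3 is the lowest treated one in each.

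The levels of the 12 genes and of the p53 targets tended to one order in the 3 treated glands, though not in every gene. Of the 12 genes, 9 were highest in 2-week library 1 and 12 were lowest in library 3. Ephx1, Dcxr and Pqlc3 were highest in library 2. Of the 48 p53 targets, 29 (60.4%) had the order library 1, 2, 3, against 23.2% of all genes tested. The score of the arrest list, the mean over its genes of log2 CPM centred on the 6 libraries, was 1.00, 0.65 and 0.16 in 2-week libraries 1 to 3 and -0.98, -0.59 and -0.24 in the untreated ones. Muscle markers were also highest in 2-week library 1. Among the untreated glands, library 1 with 21310 CPM of them had the lowest arrest score and library 3 with 9484 CPM the highest. The part of the muscle share in the order was not tested.

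The endpoint libraries, which used the same untreated controls as a reference, gave values near the untreated ones for most of the 12 genes. Eda2r was at 2.26, 1.07 and 1.72 CPM, Zmat3 at 25.8, 25.6 and 20.6 CPM, and Zfp365 at 2.26, 1.56 and 1.05 CPM. Cdkn1a, at 67.2, 121 and 496 CPM, lay above all untreated glands, and endpoint library 3 was within the 2-week range. Ephx1, at 163, 174 and 169 CPM, also lay above all untreated glands, and below all 2-week ones.

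**Figure D4:**
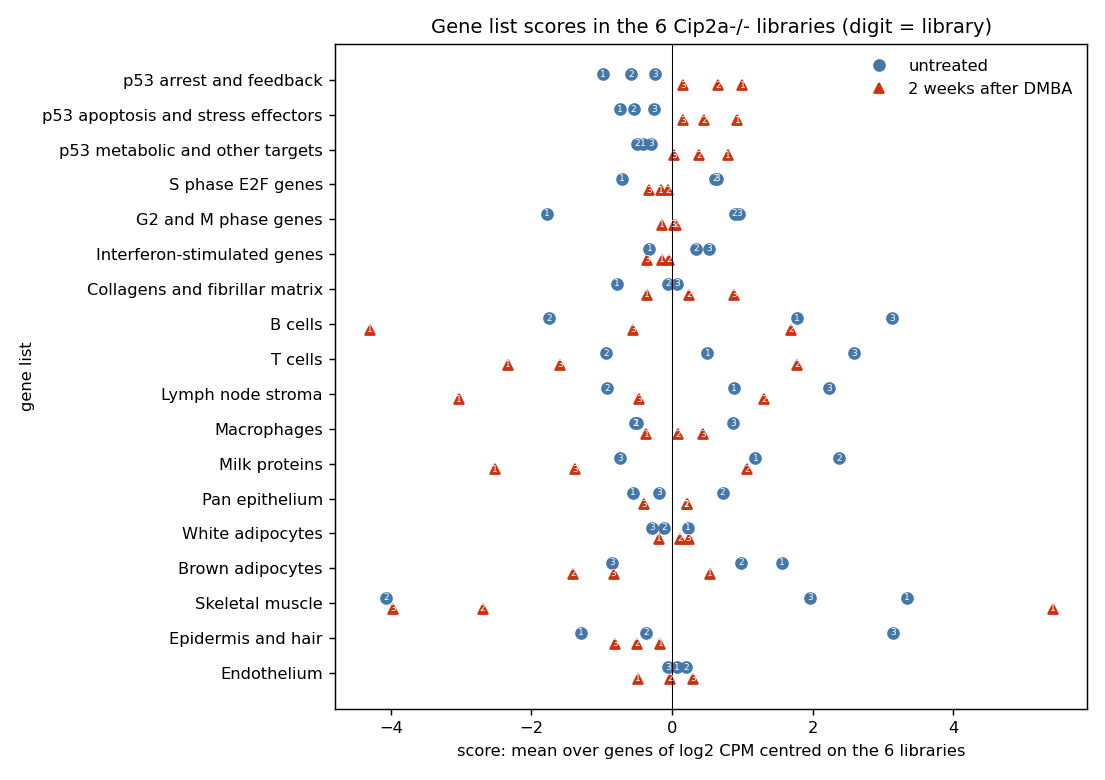
Score of 18 gene lists (x axis, mean over genes of log2 CPM centred on the 6 libraries) in the Cip2a-/- untreated (circles) and 2-week libraries (triangles), with the library number in each symbol. The treated libraries lie above the untreated ones in the 3 p53 lists, while the muscle and lymphocyte lists spread widely within both groups.

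In WT glands the 12 genes above also had positive fold changes, and the p53 targets as a list had a lower median. The 12 were picked on Cip2a-/- values, so their sizes in the genotypes are given side by side and read no further. No library is shared between the genotypes' comparisons. In WT 0 genes passed in either direction (edgeR, lowest adjusted p 0.149; 6 higher and 8 lower with DESeq2), while 450 were higher (2.91%) and 205 lower (1.32%) at an unadjusted p under 0.05. Gdf15 was at 0.564, 0.614 and 0.388 CPM in WT untreated and at 4.33, 8.32 and 25.0 CPM in WT 2-week libraries (log2 fold change 4.57 ± 0.73). Cdkn1a was at 29.4, 38.5 and 84.6 CPM and at 139, 164 and 695 CPM (2.71 ± 0.78). In both genes, and in Ephx1 (135, 148 and 182 CPM untreated, 174, 212 and 369 CPM at 2 weeks, 0.70 ± 0.23), WT 2-week library 3 was the highest. Of the 48 p53 targets, 37 had positive fold changes in WT, with a median of 0.43. Of the 255 genes that were higher in Cip2a-/- glands at an unadjusted p under 0.05 without overlap, 171 (67.1%) had positive fold changes in WT, where 47.7% of all genes did. At an unadjusted p under 0.05 in both genotypes, 59 genes were higher, 18.4% of the Cip2a-/- and 13.1% of the WT genes, and 24 were lower, 6.28% and 11.7%.

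The difference between the genotypes was tested as an interaction, and 0 genes passed (edgeR, lowest adjusted p 0.0946; 6 higher and 1 lower with DESeq2). At an unadjusted p under 0.05 the Cip2a-/- change was more positive in 197 genes (1.27%) and more negative in 252 (1.63%), 449 in all, fewer than the 774 that chance gives. Ephx1 had a difference of 1.06 ± 0.33 on the log2 scale (unadjusted p = 0.00584), Dcxr of 1.28 ± 0.50, Celf5 of 1.88 ± 0.78 and Pqlc3 of 1.04 ± 0.41, and the adjusted p of Ephx1 was 0.999 (edgeR). For Gdf15 the difference was 0.83 ± 0.94 and for Cdkn1a 1.26 ± 1.04. Over the 48 p53 targets the median difference was 0.34, positive in 37. Over all 15482 genes tested it was -0.01, positive in 7601. The p53 lists were chosen with earlier results of these data known, so these counts are no independent test. In edgeR, with all 18 libraries, no single gene thus passed for a larger response in Cip2a-/- than in WT glands.

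The list of aryl hydrocarbon receptor targets and DMBA metabolism had 14 tested members, 6 positive and 8 negative. It had 0 at an unadjusted p under 0.05 and a median of -0.05. Cyp1a1 and Cyp1b1 are in it, but Ephx1, called higher above, was placed among the p53 targets and is not. Ahr, the receptor itself, was at 20.1, 27.3 and 15.1 CPM untreated and at 14.5, 14.1 and 10.6 CPM at 2 weeks (-0.68 ± 0.44), without overlap. Ephx2, the soluble epoxide hydrolase, was at 635, 458 and 331 CPM untreated and at 295, 239 and 276 CPM at 2 weeks (-0.81 ± 0.50), lower in the treated glands in contrast with Ephx1. The 23 tested genes of the Nrf2 and glutathione list had a median of 0.15, and the 28 of DNA repair and checkpoint one of -0.12, both with 0 members at an unadjusted p under 0.05. The 22 tested subunits and inhibitors of PP2A had a median of 0.07 with 1 higher.

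Cell cycle genes tended to negative fold changes, and 1 untreated gland stood apart from the others. Of 30 S phase genes, 28 were negative and 7 (of 30, against 2.47% of all genes) were lower at an unadjusted p under 0.05, with a median of -0.43. Mcm6, a subunit of the replicative helicase, was at 19.1, 63.7 and 62.7 CPM untreated and at 20.3, 19.1 and 15.2 CPM at 2 weeks (-1.41 ± 0.55). Untreated library 1 was at the treated level, and the groups overlapped. Pole, the leading-strand polymerase, had the same pattern, with 6.22, 17.3 and 16.6 CPM against 7.33, 7.54 and 5.94 CPM (-0.94 ± 0.36). Of 30 genes of G2 and M phase, 29 were negative with a median of -0.53 and 0 at an unadjusted p under 0.05, and untreated library 1 again had the lowest score of the 6. Without untreated library 1, 17 S phase genes and 7 G2 and M phase genes were lower at an unadjusted p under 0.05, where 3.55% of all genes were. Without untreated library 3 the counts were 0 and 0, with 1.63% of all genes. In WT the median of the S phase list was 0.04 and that of G2 and M phase 0.59.

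The 12 genes named among the lower ones were chosen by the lowest p among genes without overlap between the groups. None passed the adjusted threshold in edgeR, while DESeq2 called Hepacam2 and Sele (adjusted p = 0.00521 and 0.0160). Sele, E-selectin, which captures leukocytes on inflamed endothelium, was at 2.75, 2.37 and 2.90 CPM untreated and at 0.480, 0.127 and 0.325 CPM at 2 weeks (-3.12 ± 0.74, adjusted p = 0.465, edgeR). It was also low in the WT 2-week glands, at 0.385, 0.604 and 0.421 CPM against 2.39, 2.29 and 2.88 CPM. Hepacam2, an adhesion molecule of the immunoglobulin family, was at 13.4, 25.1 and 14.4 CPM untreated and at 2.60, 1.78 and 1.95 CPM at 2 weeks (-3.06 ± 0.72). In WT its 2-week values were 14.2, 2.28 and 2.44 CPM, with 1 gland at the untreated level. Csf2rb2, a receptor subunit for interleukin 3, was at 66.3, 64.6 and 147 CPM untreated and at 16.5, 45.0 and 35.5 CPM at 2 weeks (-1.52 ± 0.40). Col13a1, a transmembrane collagen, was at 5.92, 10.8 and 5.68 CPM untreated and at 1.03, 1.82 and 3.34 CPM at 2 weeks (-1.84 ± 0.51). Gpr182, a chemokine-scavenging receptor of endothelium, was at 13.03, 9.52 and 11.3 CPM untreated and at 3.22, 4.74 and 2.88 CPM at 2 weeks (-1.64 ± 0.46). Of these 3, Gpr182 had the most even groups. The remaining 7 had log2 fold changes from -0.51 (Zfp869) to -2.79 (Pcdhac2), the others being Lilra5, Tube1, Rgl3, Pbld1 and Clcn6. Pcdhac2 belongs to a protocadherin cluster whose transcripts share exons, so its count is uncertain.

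**Figure D5:**
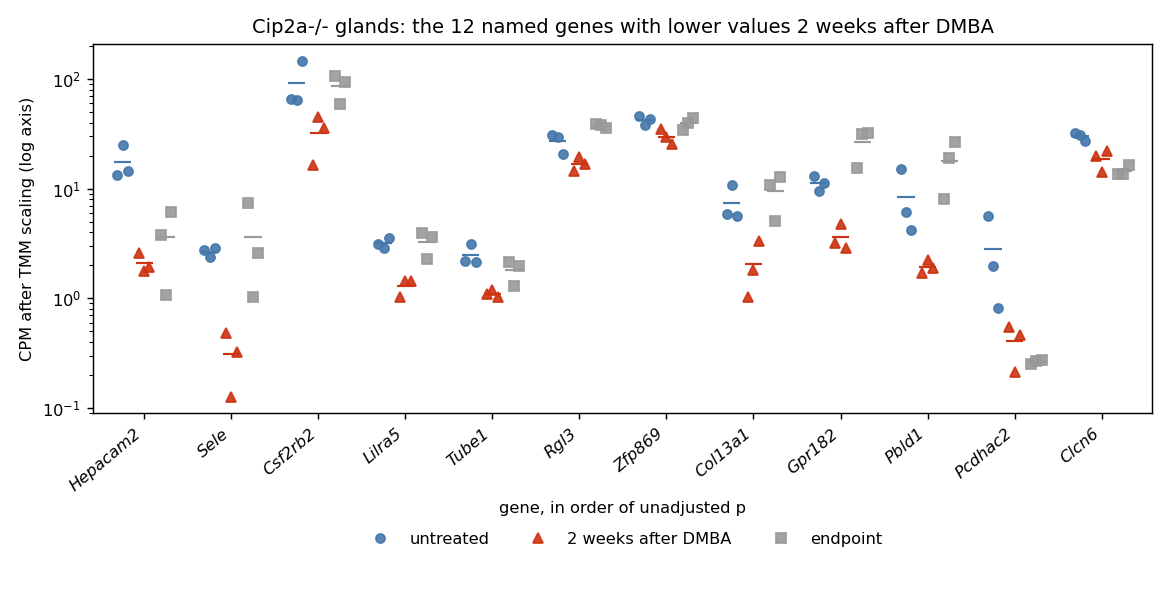
CPM after scaling (log axis) of the 12 genes with the lowest p among those lower at 2 weeks without overlap, in the Cip2a-/- untreated, 2-week and endpoint libraries. Points are libraries 1 to 3 and lines are means. The separation of treated from untreated libraries was a condition for choosing them. None passed the adjusted threshold in edgeR, and DESeq2 called Hepacam2 and Sele.

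Plasma cell and lymphocyte transcripts had negative medians in the treated glands, with wide spread in both groups. Plasma cell genes had 4 of 10 members lower at an unadjusted p under 0.05, against 2.47% of all genes, with a median of -1.09. Igj, the immunoglobulin joining chain, was at 16.4, 10.3 and 184 CPM untreated and at 1.85, 4.36 and 1.53 CPM at 2 weeks (-4.75 ± 1.45), and Derl3, an endoplasmic reticulum protein of secretory cells, at 1.196, 1.87 and 18.4 CPM and at 0.480, 1.06 and 0.928 CPM (-3.10 ± 0.99). Untreated library 3 was about an order of magnitude above the other untreated glands in both. That library also had the highest B cell, T cell and MHC class II levels, and Krt10 of the epidermis was at 142 CPM there against 3.11 and 3.13 CPM in the other untreated glands, and all 13 tested epidermal markers had negative fold changes (median -1.36). The part of skin and of lymphoid tissue in the lower values was not tested. The T cell list had 17 of 17 tested members negative with a median of -1.001, the B cell list 14 of 15 with -1.78, and 0 of either was lower at an unadjusted p under 0.05. Leaving out untreated library 3 moved the B cell median to -0.41, turned the T cell median to 0.41 and the epidermal one to 0.45. Leaving out 2-week library 2 moved the B cell median to -3.89.

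Interferon-stimulated genes had 26 of 28 members negative, 2 lower at an unadjusted p under 0.05 (against 2.47% of all genes), and a median of -0.37. The score of untreated library 1, at -0.32, lay within the treated range of -0.36 to -0.04, and untreated library 3, high in lymphoid and skin markers, had the highest score, 0.53. Rsad2 (viperin) was at 24.4, 18.4 and 17.2 CPM untreated and at 9.18, 10.8 and 8.49 CPM at 2 weeks (-1.07 ± 0.41), with even groups and no overlap. Xaf1, an interferon-induced antagonist of caspase inhibitors, was at 19.8, 28.8 and 48.6 CPM untreated and at 17.4, 19.7 and 19.1 CPM at 2 weeks (-0.79 ± 0.26). In WT the list's median was 0.11. The chemokine Cxcl12, made by stromal cells, belongs to the list of inflammatory cytokines. It was at 341, 283 and 406 CPM untreated and at 123, 210 and 231 CPM at 2 weeks (-0.87 ± 0.27).

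Among stromal genes, 24 of 26 collagens and matrix genes had positive fold changes with a median of 0.65, of which 1 was higher at an unadjusted p under 0.05, a share close to the 2.07% of all genes. That gene, Col12a1, a collagen associated with fibrils, was at 9.80, 7.48 and 7.82 CPM untreated and at 28.8, 13.1 and 16.6 CPM at 2 weeks (1.22 ± 0.38). The list's score was highest in 2-week library 3, the gland with the lowest p53 scores of the treated ones, and without it the median was 0.27. Adamts5, a protease of aggrecan and versican, was at 106, 129 and 161 CPM untreated and at 165, 354 and 436 CPM at 2 weeks (1.27 ± 0.42). Cyr61, a matrix signalling protein, was at 15.4, 27.2 and 37.9 CPM untreated and at 53.1, 63.5 and 112 CPM at 2 weeks (1.503 ± 0.49). Cyr61 belongs to the list of TGF beta targets. Outside the stromal genes, Cdkn2b, the kinase inhibitor p15, belongs to the inflammatory cytokine list, which also holds senescence genes. Cdkn2b was at 3.95, 5.78 and 8.80 CPM untreated and at 17.1, 14.2 and 21.3 CPM at 2 weeks (1.51 ± 0.49). Col12a1, Adamts5, Cyr61 and Cdkn2b, taken from different lists, were without overlap, and none passed the adjusted threshold in edgeR.

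In the epithelium, the hormone-sensing list had 11 of 14 positive members and a median of 0.46, with 0 members higher and 1 lower at an unadjusted p under 0.05. That member, Tnfsf11 (RANKL, a paracrine signal of progesterone action), was at 0.658, 41.1 and 1.91 CPM untreated and at 0.206, 0.423 and 0.371 CPM at 2 weeks (-5.39 ± 2.41). Its untreated level was high in library 2 alone. Pgr, the progesterone receptor, was at 5.68, 5.34 and 2.72 CPM untreated and at 23.4, 24.7 and 11.8 CPM at 2 weeks (2.12 ± 1.19), and at 1.95, 3.52 and 5.76 CPM and 22.1, 19.9 and 58.2 CPM in WT (3.16 ± 1.24). Prlr, the prolactin receptor, was at 90.7, 84.9 and 97.6 CPM untreated and at 366, 181 and 136 CPM at 2 weeks (1.32 ± 0.84). Both had no overlap in Cip2a-/- glands, and unadjusted p values of 0.0948 and 0.136. Milk protein genes had a median of -2.03 with 11 of 12 negative, and of -0.55 without untreated library 2, where the casein Csn2 was at 326 CPM against 7.77 and 0.174 CPM in the other untreated glands.

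Among pathways, medians lay within 0.15 of 0 for endoplasmic reticulum stress, glucocorticoid targets, the circadian clock, inflammatory cytokines, cholesterol synthesis, oxidative phosphorylation, hypoxia, targets of TGF beta, ErbB receptors, Wnt and Notch, and Myc with ribosome biogenesis. Single members of these lists still moved. Of 21 tested inflammatory cytokine genes, 3 were lower (against 2.47% of all genes) and 1 higher at an unadjusted p under 0.05. Of 18 tested TGF beta targets, 2 were higher (against 2.07% of all genes). Each other list had at most 1 member at that threshold. Fatty acid synthesis had a median of -0.63 with 0 of 21 genes at an unadjusted p under 0.05. The ribosomal protein genes had 72 of 75 negative with a median of -0.29, heat shock chaperones a median of 0.33, immediate early genes 0.29, matrix proteases 0.26 and the integrated stress response 0.24. Among cell types, medians were -1.53 for NK and cytotoxic cells (2 of 13 lower at an unadjusted p under 0.05), -1.30 for lymph node stroma (2 of 10 lower), -1.01 for neutrophils, -0.99 for dendritic cells and MHC class II, -0.80 for mast cells and 0.07 for macrophages. Without untreated library 3 these were -0.61 for NK cells, -0.17 for lymph node stroma, 0.36 for neutrophils, -0.12 for dendritic cells and -0.27 for mast cells. Luminal progenitor markers had a median of -1.003, brown fat of -0.74, white fat of 0.10, fibroblasts of 0.41, basal cells of 0.14, endothelium of -0.10, smooth muscle of 0.25 and nerve of 0.39. The luminal progenitor scores of libraries 1 to 3 were 0.20, 1.35 and -0.08 untreated and -1.03, 0.03 and -0.46 at 2 weeks. Those of brown fat were 1.56, 0.98 and -0.85 untreated and 0.54, -1.40 and -0.83 at 2 weeks. The groups overlapped in both scores. Skeletal muscle had a median of 1.68, which was -5.74 without 2-week library 1.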

How the data were processed

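RNA was sequenced from 18 mouse mammary glands, 3 per group, after TruSeq Stranded mRNA library preparation, per the labels' protocols. The submitters' processing notes name bcl2fastq 2.17, STAR 2.5.2b, Subread 1.5.1 and mm10, while annotation and strand setting were not given in the sources used here, so antisense and multi-copy genes are uncertain. Each deposited value is a raw count of reads for a gene, per the file headers, with totals of 16121743 to 24586404, which limit the precision of low genes. The labels do not say that libraries of a group came from separate mice, and p-values measure the spread between them.

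From the counts, edgeR 4.0.16 (R 4.3.3) kept genes by filterByExpr (minimum count 10, minimum total 15), scaled by TMM and fitted all 18 libraries with 1 term per group. Quasi-likelihood F-tests were adjusted by Benjamini-Hochberg over all 15482 genes. SE is the fold change over the root of F. Each median is of fitted log2 fold changes. Of the gene symbols, 23131 matched RefSeq, the source of coordinates and promoters (GRCm38). DESeq2 1.42.0, limma 3.58.1 (voom), other scaling, no filter, fewer libraries and a replicate block were alternatives. Named genes are Cip2a, the called genes and, filling to 12 per direction, those with the lowest p, a mean of at least 1 CPM and no overlap, plus 2 of lowest p per direction from each of 28 gene lists and 24 marker lists. Members and lists were chosen with earlier results of these data known. In simulated counts over 15365 genes for the Cip2a-/- comparison, 56% of genes changed 4-fold and 78% of those changed 8-fold were recovered. Of 15167 unchanged genes, 3 were called. The counts were drawn gene by gene, without the shifts in muscle or lymphoid share seen in the glands, so these rates need not hold for them.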

Additional observations from a re-analysis of the deposited data

Results flagged for a closer look

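Zfp869, Cryab and Thbd differed in opposite directions in the genotypes, with no overlap between treated and untreated glands in either. They were picked from the named genes by this rule, so the separation was a condition for choosing them and is no test. Zfp869 had already been named for its lack of overlap in Cip2a-/- glands. How many of all genes tested meet the rule was not counted. Zfp869, a zinc finger gene, had 46.0, 38.1 and 43.6 CPM untreated and 34.8, 29.3 and 25.7 CPM at 2 weeks in Cip2a-/- glands, and 31.9, 30.5 and 31.7 CPM and 36.0, 34.3 and 35.5 CPM in WT. The difference between the genotypes' changes was -0.68 ± 0.20 on the log2 scale. Cryab, a small heat shock protein of muscle and other tissues, had 107, 111 and 145 CPM and 457, 194 and 238 CPM in Cip2a-/- glands, and 206, 159 and 174 CPM and 95.7, 126 and 114 CPM in WT, a difference of 1.97 ± 0.79. The 2-week library 1 with the highest muscle markers was also the highest in Cryab, and the part of muscle in it was not tested. Thbd, thrombomodulin of endothelium, had 111, 106 and 121 CPM and 138, 162 and 212 CPM in Cip2a-/- glands, and 193, 227 and 191 CPM and 123, 153 and 181 CPM in WT, a difference of 1.02 ± 0.35. In the interaction test none of the 3 differences passed (adjusted p = 0.999 for each, edgeR).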

How the results depend on the processing

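The 2 genes called higher stayed 2 with RLE or upper-quartile scaling, without the low-count filter and at an adjusted p under 0.10. They became 30 with DESeq2 (Gdf15 and Ephx1 among them, and Cdkn1a, Eda2r, Mdm2 and Bax), 1 with limma voom (Ephx1), 0 with only the 6 libraries and 0 without the 6 endpoint libraries, a fit chosen after seeing the data. Leaving out 1 library gave 0 to 0 higher. Genes called lower numbered 0, 6 with DESeq2, and 0 to 1 without 1 library (Hprt without 2-week library 2, adjusted p = 0.0485). In WT, DESeq2 called 6 higher and 8 lower, and for the difference between genotypes 6 higher and 1 lower, while leaving out 1 library gave 0 to 1 higher for the difference. Replicate numbers did not pair the libraries: same-numbered deviations correlated at 0.476, 0.0838 and -0.0908. With the replicate number as a block, 2 genes were called higher in all 18 libraries and 0 in the 6. Pmaip1, at -1.004 in all 6, ranged from -1.38 to 0.25 when 1 library was left out, and was positive without untreated library 3. Low depth limits genes such as Rprm and Gdf15 in untreated glands.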

Other observations

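The genes given here were chosen after their values were seen. Hprt, the purine salvage enzyme often used as a reference gene, had 7 and 12 reads in Cip2a-/- 2-week libraries 1 and 3 and 1115 in library 2, while the other 16 libraries, library 2 among them, had 370 to 2553. Svop, a synaptic vesicle protein, had 0 reads in all 3 untreated Cip2a-/- libraries and 83, 116 and 21 reads at 2 weeks. Against a floor of 3 reads summed over the untreated group it was at least 61.9-fold higher, and WT 2-week library 3 had 28 reads. Ifi202b, an interferon-inducible gene with close copies whose counts are uncertain, had 100, 0 and 169 reads untreated and 0, 4 and 0 reads at 2 weeks. C130026I21Rik, a gene without a given name, had 220, 246 and 1727 reads untreated and 7, 44 and 19 reads at 2 weeks. Ucp1 of brown fat was at 318, 283 and 6.37 CPM untreated and at 28.8, 5.46 and 10.8 CPM at 2 weeks, so 1 untreated gland lay in the treated range.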
